A study of Mus musculus with 6 samples.

Results

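The collagen genes were described in astrocytes, the glial cells that surround and support neurons, of mouse neocortex and cerebellum. The set held 36 collagen genes of the 18193 genes on the array, found by gene symbol in the array's annotation. Every member had a probe set, and together they had 69 of the 45037 probe sets analysed. Total RNA was labelled as biotinylated amplified RNA and hybridised to 1 array per sample, with 3 neocortical and 3 cerebellar arrays. The labels name the ICR strain for the neocortical arrays, and a strain is not given for the cerebellar arrays in the sources used here. Whether strain differed between the regions is therefore not known, and if it did, region and strain cannot be told apart. Age, culture and whether the arrays of a region came from separate animals or preparations are likewise not given. The p-values therefore cover the spread among these arrays alone, and that spread may be technical. No treatment or genetic change is named for either region.

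Collagens are secreted or membrane proteins whose chains wind around each other into a stiff helix, and a given collagen type is built from the products of particular genes. In the brain most collagen lies in the meninges and in the basement membranes of blood vessels and the glial surface, where astrocyte endfeet rest on a type IV collagen network. Fibril-forming collagens are typical products of fibroblasts, so their signal in an astrocyte sample can come from astrocytes or from other cells, and in these bulk samples a difference in the number of cells of a type cannot be told apart from a difference in RNA per cell.

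Signals are array intensities in arbitrary units, quantile normalized so that arrays can be compared, and a difference is given as log2 of cerebellar over neocortical. Signals under 62.16 were raised to that floor before taking log2. The dim range is taken as signals up to 257.6, the highest of 24 probe sets for bacterial controls, and a level within it is uncertain.

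Of the 36 genes, 29 had a probe set bright enough to be tested. In cerebellar astrocytes 5 of those 29 were lower and 2 higher (limma, Benjamini-Hochberg adjusted p under 0.05 over all 27022 probe sets tested, each gene read by its brightest probe set). The 5 lower genes were Col4a3, Col4a4, Col9a1, Col11a1 and Col12a1, and the 2 higher ones were Col16a1 and Col23a1. The largest fitted difference was that of Col4a4, which was 18.2-fold lower. Over all 12637 genes tested, 12.9% passed in either direction, 7.47% as lower and 5.4% as higher, against 24.1%, 17.2% and 6.9% of the tested collagen genes. Col4a3 and Col4a4 passed the filter on dim probe sets through their neocortical arrays alone, so their presence among the tested genes already favours a difference and these shares are a description. The median log2 difference was -0.003 over the 29 collagen genes and -0.015 over all genes tested. Higher calls were 42.0% of all calls over all genes and 22.8% when arrays were scaled by their medians, and for collagens the split was 2 higher and 6 lower under that scaling, where 13.0% of all genes passed, 2.97% as higher and 10.0% as lower. With values as deposited it was 2 higher and 5 lower, where 13.2% of all genes passed, 5.98% as higher and 7.22% as lower. With replicate number as a block it was 4 higher and 6 lower, where 14.9% of all genes passed, 6.16% as higher and 8.7% as lower.

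**Figure D1:**
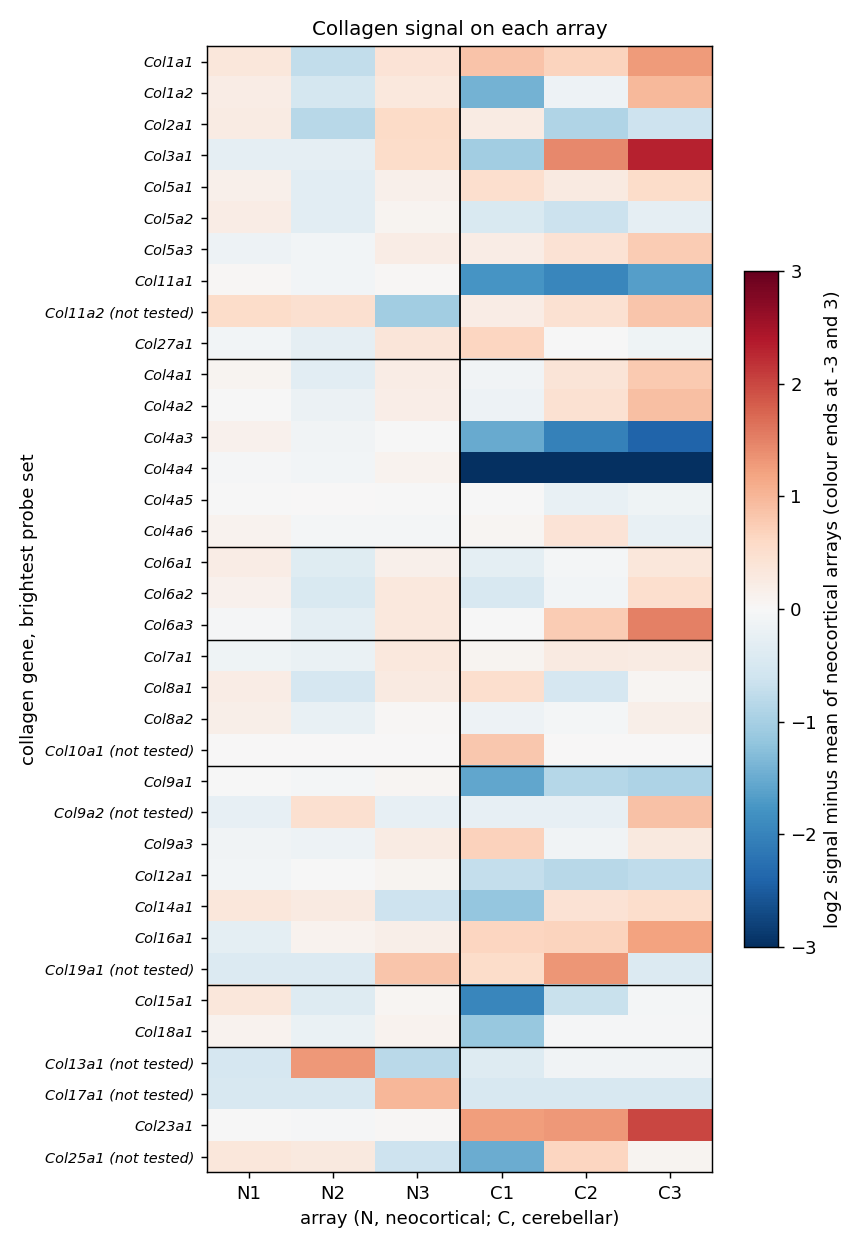
Signal of all 36 collagen genes on each array, as the log2 signal of the brightest probe set minus the mean of the neocortical arrays, with signals under the floor of 62.16 raised to it. Rows are genes grouped by collagen class from fibril-forming at the top to transmembrane at the bottom, and columns are arrays; Col4a4 lies below -3 on every cerebellar array, and Col3a1 runs from -1.05 to 2.31 between cerebellar arrays.

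RefSeq promoter windows (GRCm38.p6) were found for 29 of the 36 members by symbol. Those of 4 genes that passed the test are shown, each as the 250 bases before an annotated start, together with stretches where type IV collagen genes lie head to head, because both genes of a pair can then be read against the same letters. Capitals mark matches on either strand to any of the short motifs searched. The GC box was searched as GGGCGG and its reverse complement. The CCAAT box was searched as those letters and their reverse complement. The core TATA motif was searched as TATAAA and its reverse complement. A match describes the letters and is not evidence of a bound factor.
Col11a1, chr3:114030290-114030539, plus strand: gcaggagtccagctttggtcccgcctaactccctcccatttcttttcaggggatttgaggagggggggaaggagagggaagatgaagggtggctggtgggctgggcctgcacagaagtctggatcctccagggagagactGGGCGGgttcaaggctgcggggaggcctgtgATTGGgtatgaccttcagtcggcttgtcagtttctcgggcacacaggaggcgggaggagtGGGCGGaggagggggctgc
Col23a1, chr11:51289670-51289919, plus strand: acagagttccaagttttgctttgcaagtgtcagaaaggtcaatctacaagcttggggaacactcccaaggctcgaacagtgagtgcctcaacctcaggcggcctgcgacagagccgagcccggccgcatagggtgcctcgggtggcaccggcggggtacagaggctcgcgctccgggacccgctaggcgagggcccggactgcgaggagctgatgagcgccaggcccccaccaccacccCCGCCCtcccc
Col16a1, chr4:130047590-130047839, plus strand: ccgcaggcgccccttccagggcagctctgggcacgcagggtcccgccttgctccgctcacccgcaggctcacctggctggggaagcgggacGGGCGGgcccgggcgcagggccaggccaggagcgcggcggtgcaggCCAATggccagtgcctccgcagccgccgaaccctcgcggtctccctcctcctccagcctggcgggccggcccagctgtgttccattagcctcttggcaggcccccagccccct
Col9a1, chr1:24177360-24177609, plus strand, upstream start: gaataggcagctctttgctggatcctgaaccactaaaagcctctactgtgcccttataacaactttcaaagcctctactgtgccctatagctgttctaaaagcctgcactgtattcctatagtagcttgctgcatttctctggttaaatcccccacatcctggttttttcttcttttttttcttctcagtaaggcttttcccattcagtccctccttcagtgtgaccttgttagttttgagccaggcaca
Col9a1, chr1:24194953-24195202, plus strand, downstream start: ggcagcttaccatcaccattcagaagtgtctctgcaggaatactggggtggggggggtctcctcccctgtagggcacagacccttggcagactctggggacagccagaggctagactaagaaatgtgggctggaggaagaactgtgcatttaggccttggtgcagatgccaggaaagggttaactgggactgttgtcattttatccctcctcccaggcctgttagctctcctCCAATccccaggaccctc
Col4a4, chr1:82586850-82586920, minus strand, from the Col4a3 side to the Col4a4 start: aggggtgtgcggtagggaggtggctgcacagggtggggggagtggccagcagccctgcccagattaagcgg
Col4a2 and Col4a1, chr8:11312805-11312826, plus strand, shared by the first bases of both genes: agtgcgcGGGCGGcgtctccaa

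The Col11a1 window held 2 GC boxes, at bases 110 to 105 and 19 to 14 before the start, and 1 CCAAT box on the opposite strand. The Col16a1 window held 1 of each, and the Col23a1 window 1 GC box on the opposite strand, at bases 11 to 6 before the start. Upstream of Col9a1 the farther start had a GC content of 43.6% and no match, and the nearer start 56.0% and 1 CCAAT box. Over all 32851 windows of this length in the table, 32.7% held a GC box, 33.8% a CCAAT box and 12.4% a TATAAA match. Of the 32 windows of collagen members, 59.4% held a GC box, 37.5% a CCAAT box and 15.6% a TATAAA match. The array does not tell which Col9a1 start was used.

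Type IV collagens form the sheet-like network of basement membranes, and their 6 genes lie as 3 head-to-head pairs. Col4a1 and Col4a2 encode the chains found in nearly all basement membranes. Col4a3 and Col4a4 encode chains that assemble with the Col4a5 chain in specialised membranes such as that of the kidney glomerulus, and Col4a6 encodes a chain that also pairs with Col4a5. The table's starts of Col4a2 and Col4a1 overlap by the 22 bases shown, those of Col4a4 and Col4a3 are 71 bases apart, although a longer RefSeq model of Col4a4 reaches past that gap, and those of Col4a6 and Col4a5 are 1342 bases apart.

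Both genes of the Col4a3 and Col4a4 pair were lower in cerebellar astrocytes. Each of their 5 probe sets had a cerebellar mean under the filter and was tested only through its neocortical arrays. Col4a4 read 2512, 2426 and 2749 units of normalized signal on neocortical arrays 1 to 3 and 29.41, 208.1 and 216 on cerebellar arrays 1 to 3. Every cerebellar array lay under every neocortical array, by a log2 difference of -4.18 ± 0.432 (SE, limma adjusted p = 0.000673). The other probe sets of Col4a4 were 16- and 6.69-fold lower, each with an adjusted p of 0.0025. Col4a3 read 743, 623.8 and 668 on the neocortical arrays and 236.2, 165.8 and 127.7 on the cerebellar arrays. Its groups did not overlap either, with a 3.96-fold lower level (log2 difference -1.98 ± 0.294, SE, limma adjusted p = 0.00376). The other Col4a3 probe set was at the floor on all cerebellar arrays, which gave a bound of at least 6.24-fold lower (adjusted p = 0.00679).

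The sizes of these folds are uncertain, because the cerebellar means of 151.2 for Col4a4 and 176.6 for Col4a3 lay in the dim range. The direction and the call of Col4a4 held in each of 16 alternative settings, with log2 differences from -4.54 to -3.59, and those of Col4a3 in each of 15. All of these settings but the one with no filter kept a filter on mean signal. In the main setting both genes passed it through their neocortical arrays alone, so holding there adds no support. With no filter the limma adjusted p was 0.0333 for Col4a4 and 0.0402 for Col4a3.

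The other type IV genes did not pass. Col4a5 read 25820, 26270 and 25960 on neocortical and 25800, 22430 and 23650 on cerebellar arrays. The groups were separated by a margin far smaller than the spread of the cerebellar arrays. Its log2 difference was -0.121 ± 0.0782 (SE, limma adjusted p = 0.366), and its other probe set differed by 0.278, in the opposite direction. Col4a6 read 4730, 4186 and 4205 against 4516, 5794 and 3743, with overlapping groups (adjusted p = 0.801). Col4a1 read 18420, 13940 and 20070 on neocortical and 15930, 22470 and 29630 on cerebellar arrays. Col4a2 read 8757, 7823 and 10220 against 7989, 12110 and 16610. For both genes cerebellar array 1 lay among the neocortical arrays and the other cerebellar arrays lay above them. Their log2 differences were 0.347 ± 0.214 and 0.40 ± 0.23 (SE, limma adjusted p = 0.344 and 0.31). Without cerebellar replicate 1, Col4a2 passed, with a log2 difference of 0.676 and an adjusted p of 0.0326, and without cerebellar replicate 3 the difference was 0.148 (adjusted p = 0.684).

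**Figure D2:**
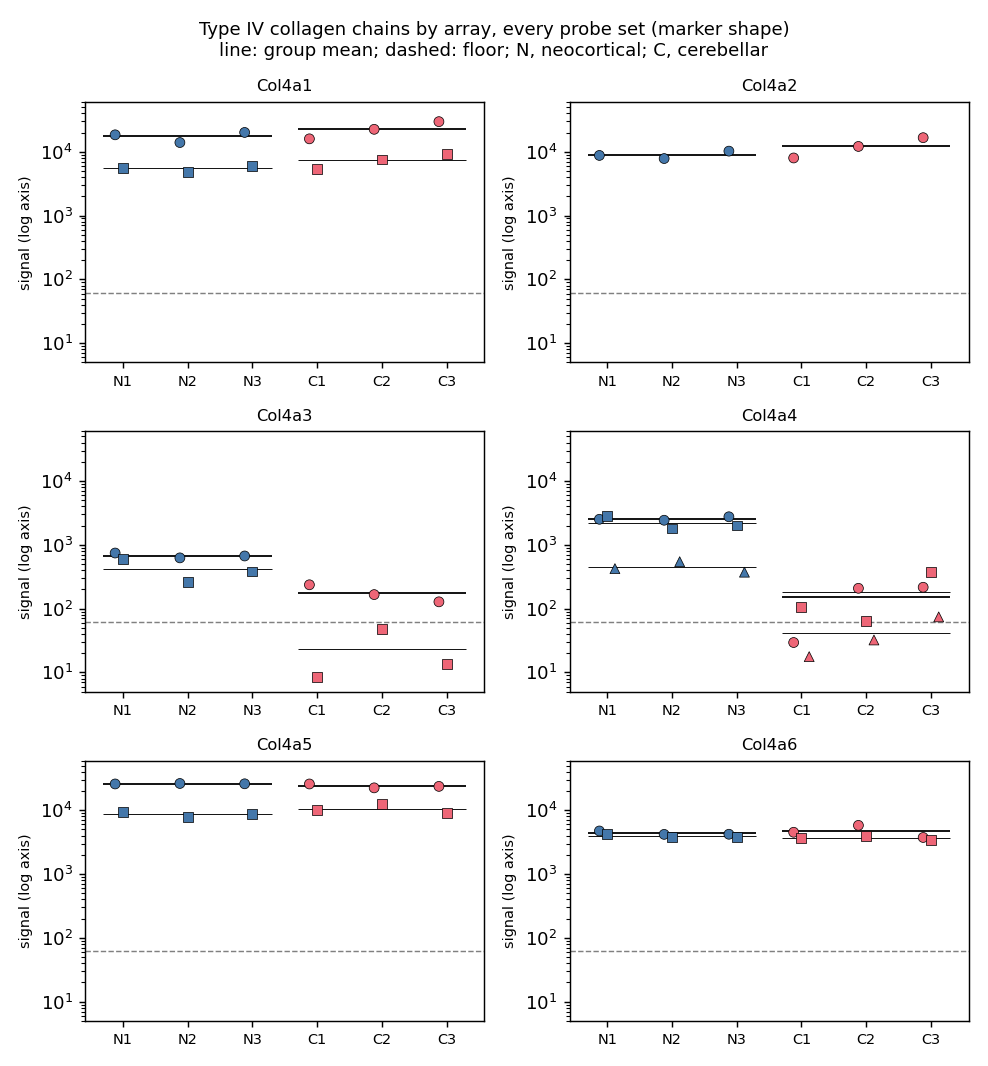
Normalized signal (arbitrary units, log axis) of the 6 type IV collagen genes on neocortical arrays N1 to N3 and cerebellar arrays C1 to C3. Marker shapes are probe sets, solid lines group means and the dashed line the floor of 62.16; Col4a3 and Col4a4 are low on all cerebellar arrays, while Col4a5 stays between 22430 and 26270 on its brightest probe set.

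Fibril-forming collagens make the banded fibrils of connective tissue. Of 10 such genes 9 were tested, and Col11a1 passed, against 12.9% of all genes tested. It encodes a chain of type XI collagen, a minor component that is known to limit fibril width in cartilage. It read 11480, 10610 and 11470 on neocortical arrays and 3298, 2867 and 3538 on cerebellar arrays. The groups were far apart and tight, and Col11a1 was 3.47-fold lower in cerebellar astrocytes (log2 difference -1.79 ± 0.108, SE, limma adjusted p = 4.14e-05). Its second probe set was 2.5-fold lower (adjusted p = 0.00162), and the call held in each of 16 alternatives. Of the genes whose chains can join Col11a1 in type XI collagen, Col2a1 read 627.2, 298.9 and 785.5 against 627.5, 280.9 and 341.4, with overlapping groups (adjusted p = 0.56). Col11a2 was too dim to test, at 189.1, 179.3 and 57.33 against 149.6, 175.3 and 227.8.

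Type V collagen chains sit within type I fibrils, and none of their 3 genes passed by its brightest probe set, while their unadjusted limma p-values were 0.0124 for Col5a1, 0.0103 for Col5a2 and 0.0273 for Col5a3. Col5a1 read 9888, 7169 and 9820 on neocortical and 12570, 10630 and 13030 on cerebellar arrays, with no overlap and the cerebellar arrays above. Its log2 difference was 0.441 ± 0.142 (SE), and its adjusted p was 0.0827 by limma, and 0.0179 with replicate number as a block. Its other probe sets were 1.6- and 1.67-fold higher and passed (adjusted p = 0.0447 and 0.0475). Col5a2 read 39850, 27580 and 35990 against 24650, 21750 and 28130, so that cerebellar array 3 lay above neocortical array 2. Its log2 difference was -0.464 ± 0.143 (SE, limma adjusted p = 0.0739), with 0.0143 under the replicate block, 0.023 under scaling by the median, 0.0287 without neocortical replicate 2 and 0.0708 to 0.226 when any other single array was left out. The other probe set of Col5a2 had overlapping groups and a log2 difference of -0.129 (limma adjusted p = 0.586). Col5a3 read 1078, 1122 and 1387 against 1382, 1614 and 2005, and had a log2 difference of 0.472 ± 0.179 (SE, adjusted p = 0.132).

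Col1a1 and Col1a2 encode the chains of type I collagen, the main collagen of skin, bone and meninges. Col1a1 read 16760, 7986 and 17640 on neocortical and 24160, 21210 and 32250 on cerebellar arrays. The groups did not overlap, and neocortical array 2 was low. The log2 difference was 0.936 ± 0.282 (SE, limma adjusted p = 0.068, and 0.00575 under the replicate block), while the dimmer probe set of Col1a1 differed by -0.092. Col1a2 read 26350, 15750 and 28240 against 8561, 20390 and 44840. Its cerebellar arrays thus lay on both sides of the neocortical range, and the log2 difference was -0.194 ± 0.498 (SE, adjusted p = 0.848). The sign of that difference changed in 3 of 16 alternatives. Col27a1, a fibrillar collagen of cartilage, had a log2 difference of 0.167 ± 0.276 (SE).

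Col3a1, the chain of type III collagen in reticular fibres, had the widest spread among the tested members. It read 15060, 15130 and 26660 on neocortical arrays and 8805, 49850 and 90460 on cerebellar arrays. Cerebellar array 1 lay under all neocortical arrays and the other cerebellar arrays lay above all of them, a 10.3-fold range within the group. The mean signals were 18950 ± 6677 and 49710 ± 40830 (SD, n = 3 each, neocortical first), and the log2 difference of 0.903 ± 0.70 (SE) did not pass (limma adjusted p = 0.456). Without cerebellar replicate 1 it was 1.88 and passed (adjusted p = 0.00612), and without cerebellar replicate 3 it was 0.20 (adjusted p = 0.883).

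**Figure D3:**
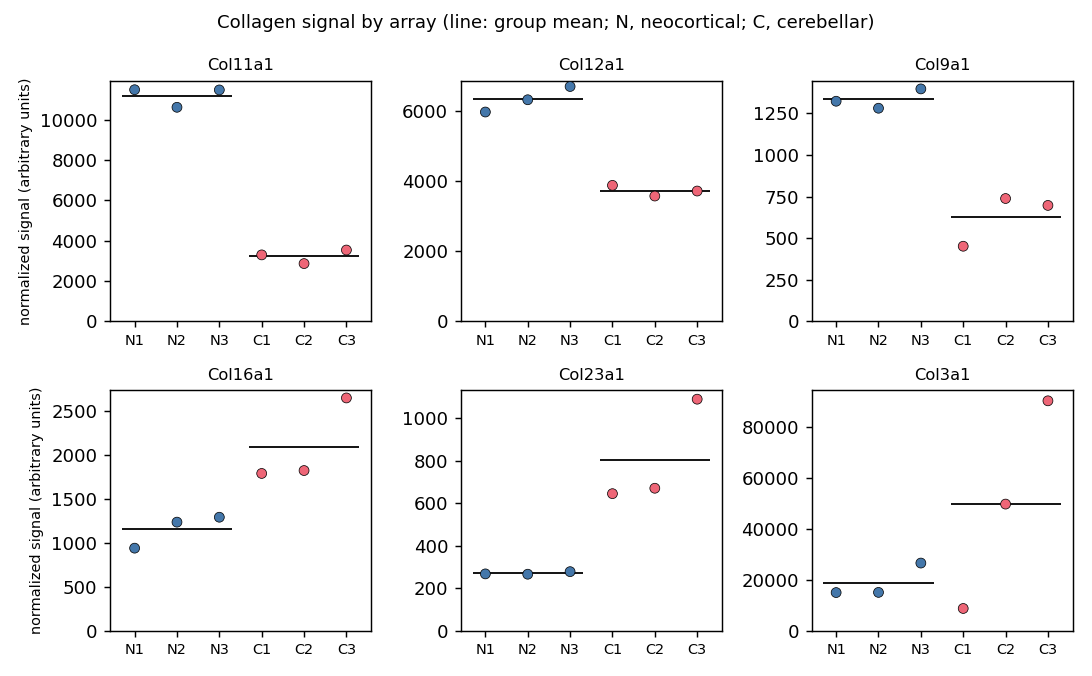
Normalized signal (arbitrary units, linear axis from 0) on neocortical arrays N1 to N3 and cerebellar arrays C1 to C3 for Col11a1, Col12a1, Col9a1, Col16a1 and Col23a1, which passed the test, and Col3a1, which did not. Points are arrays and lines group means; the groups of the genes that passed do not overlap, and Col3a1 runs from 8805 to 90460 between cerebellar arrays.

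Fibril-associated collagens bind to the surface of fibrils rather than forming their own. Of 7 such genes 5 were tested, of which 2 were lower and 1 was higher in cerebellar astrocytes, against 7.47% lower and 5.4% higher over all genes tested. Col12a1, which encodes a chain that decorates type I fibrils, read 5961, 6310 and 6687 on neocortical and 3874, 3570 and 3712 on cerebellar arrays. Its groups were narrow and separate, at a 1.7-fold lower level (log2 difference -0.764 ± 0.0981, SE, limma adjusted p = 0.00183). A second Col12a1 probe set was 1.63-fold lower (adjusted p = 0.0438), and another 2 were too dim to test.

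Col9a1 encodes a chain of type IX collagen, which coats the type II fibrils of cartilage. It read 1322, 1280 and 1396 on neocortical and 451.6, 738 and 696.6 on cerebellar arrays, so cerebellar array 1 was lowest. It was 2.17-fold lower (log2 difference -1.12 ± 0.21, SE, limma adjusted p = 0.0116). Its dimmer probe set was 1.89-fold lower without passing (adjusted p = 0.0655). The call was lost without neocortical replicate 1 (0.0505) or 3 (0.0603) and without the filter on dim probe sets (0.0733). Of the genes of its partner chains, Col9a3 read 433.1, 422.1 and 552.6 against 747, 435.9 and 570.6, with overlapping groups (limma adjusted p = 0.508). Col9a2 was too dim to test, at 26.22, 101.3 and 28.63 against 34.42, 18.63 and 135.3.

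Col16a1, a fibril-associated collagen gene, was higher in cerebellar astrocytes. It read 941, 1237 and 1293 on neocortical and 1791, 1824 and 2650 on cerebellar arrays, with no overlap and a high cerebellar array 3. The level was 1.79-fold higher (log2 difference 0.841 ± 0.198, SE, limma adjusted p = 0.0287). This call was among the less stable, holding in 9 of 15 alternatives. It was lost without any of neocortical replicates 1, 2 and 3 (0.106, 0.0735 and 0.0667), without cerebellar replicate 3 (0.07), without the variance trend (0.0744) and without the filter (0.129). Col14a1 ran from 225 to 437.8 on neocortical and from 154 to 493.7 on cerebellar arrays.

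Transmembrane collagens span the cell membrane with a collagenous part outside the cell. Col23a1 was the gene of 4 in this class that was bright enough to test, and it was higher in cerebellar astrocytes. It read 267.8, 266.3 and 278.3 on neocortical and 644.9, 670.4 and 1089 on cerebellar arrays. The neocortical arrays were nearly equal, and all cerebellar arrays were above them, with cerebellar array 3 highest. The neocortical signals lay just above the dim range, which ends at 257.6, so the size of the fold is uncertain. As deposited they were 250.8, 237.7 and 276.1, against a highest bacterial control of 269.2. The level was 2.87-fold higher (log2 difference 1.52 ± 0.257, SE, limma adjusted p = 0.00717). The other probe sets were 4.43-fold and, with all neocortical arrays at the floor, at least 5.39-fold higher (adjusted p = 0.00457 and 0.0139), but their neocortical means of 155.5 and 21.59 lay in the dim range and under the filter, so they were tested only through their cerebellar arrays and add no support. The call was lost only when the filter on dim probe sets was removed (adjusted p = 0.0534), among 15 alternatives.

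The genes of type VI collagen, whose chains form beaded filaments around cells, did not pass. Col6a1 had means of 5389 ± 1107 and 5385 ± 1225, and Col6a2 of 3479 ± 913.6 and 3478 ± 1222 (SD, n = 3 each, neocortical first). Col6a3 read 599.4, 495.8 and 761.1 on neocortical and 604.1, 1040 and 1736 on cerebellar arrays, with cerebellar array 1 inside the neocortical range. Its log2 difference was 0.757 ± 0.352 (SE, limma adjusted p = 0.211), with 1.14 (adjusted p = 0.0349) without cerebellar replicate 1 and 0.38 (adjusted p = 0.484) without cerebellar replicate 3. Of the multiplexins, basement membrane collagens with interrupted helices, Col18a1 is the source of the fragment endostatin. It read 7669, 6168 and 7590 against 3231, 6932 and 6924, so on this probe set cerebellar array 1 alone was under the neocortical range (adjusted p = 0.38). On the other Col18a1 probe set cerebellar arrays 1 and 2 both were, at 1863 and 2577 against a lowest neocortical signal of 3215 (limma adjusted p = 0.161). Col15a1 read 304.1, 182.9 and 250.1 against 31.77, 150.7 and 232.1 (adjusted p = 0.324). Only neocortical array 1 lay above the dim range, and cerebellar array 1 was under the floor. The means were 245.7 and 138.2, the latter under the filter of 183.7, so Col15a1 was tested only through its neocortical arrays.

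Of the remaining tested members, Col7a1 of anchoring fibrils and the network-forming Col8a1 and Col8a2 had log2 differences of 0.20 ± 0.218, 0.022 ± 0.27 and -0.016 ± 0.15 (SE). The 7 members that were too dim to test were Col9a2, Col10a1, Col11a2, Col13a1, Col17a1, Col19a1 and Col25a1. Their brightest probe sets read from 12.72 to 271.6 over all arrays, against a filter at a mean signal of 183.7. Col10a1 read 19.35, 16.52 and 12.72 on neocortical and 109.1, 21.23 and 20.38 on cerebellar arrays, and Col17a1 read 20.88, 24.05 and 173 against 23.32, 15.82 and 13.55. In each of these a single array stood above the rest. Col25a1, just under the filter, had a mean of 176.4 over the 6 arrays, and Col15a1, just above it, had 192.

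**Figure D4:**
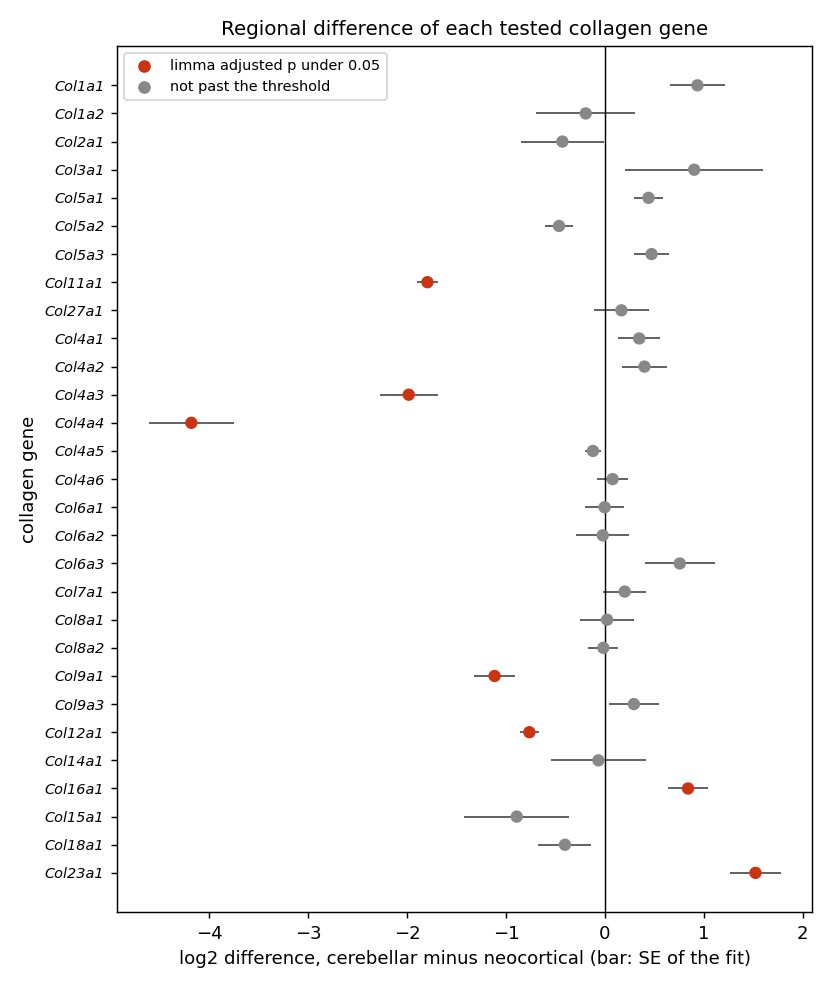
Fitted log2 difference, cerebellar minus neocortical, of each of the 29 tested collagen genes (points; bars are SE of the limma fit). Red points passed an adjusted p of 0.05: 5 genes lie to the left, down to -4.18 for Col4a4, and 2 to the right, up to 1.52 for Col23a1.

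Spread within a region was wide for many collagens, more so on the cerebellar arrays. The highest cerebellar array was at least 2-fold above the lowest for 10 of the 29 tested genes, and the same held for 2 on the neocortical arrays. Over all 12637 genes tested the counts were 1612 and 896. The median ratio of highest to lowest array was 1.71 for collagens on cerebellar and 1.38 on neocortical arrays, against 1.3 and 1.22 over all genes. Cerebellar array 1 was the lowest and cerebellar array 3 the highest of the cerebellar arrays for 14 of 29 collagen genes (48.3%), against 15.1% of all genes. These included Col1a2, Col3a1, Col4a1, Col4a2, all 3 type VI genes, Col14a1 and Col15a1. Of the 7 genes that passed, Col4a4, Col16a1 and Col23a1 were also among them. A total of 10 of 29 collagen genes had groups that did not overlap (34.5%), the same share as over all genes (34.5%).

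Markers of fibroblasts and meningeal cells, none of them a collagen, often had the same order on the cerebellar arrays. Of 16 tested, 12 were lowest on cerebellar array 1 and highest on cerebellar array 3, and on cerebellar arrays 1 to 3 the median of their log2 deviations from the neocortical level was -0.799, 0.504 and 1.115. For the 29 collagen genes the medians were -0.152, -0.05 and 0.246. Decorin (Dcn), a proteoglycan that binds collagen fibrils, read 3367, 19080 and 32070 on those arrays, and the meningeal enzyme gene Aldh1a2 read 2576, 7394 and 9891. The summed signal of all 18 listed markers ran from 72510 to 92410 on neocortical and from 34910 to 104700 on cerebellar arrays. Of the 16, Twist1 was higher (2.06-fold) and Ogn and Islr were lower (5.43- and 2.08-fold) in cerebellar astrocytes. Over all genes tested 5.4% were higher and 7.47% lower. Dpt and Pi16, further fibroblast markers, were too dim to test. The part of such cells in the collagen values was not tested. Other lists were low on cerebellar array 1 too, with medians of -0.732 for astrocyte, -1.481 for microglia, -1.504 for endothelial and -1.893 for choroid plexus markers. Those for mural and Schwann cell markers were -0.09 and -0.237, and those for neuron and oligodendrocyte markers 0.384 and 0.271. Without cerebellar replicate 1, 10 collagen genes passed, 5 higher and 5 lower. Over all genes 12% then passed, 4.76% as higher and 7.23% as lower. The 5 lower collagen genes were those of the full comparison, and Col3a1, Col4a2 and Col6a3 joined Col16a1 and Col23a1 as higher. All of the higher genes were among the 14 lowest on cerebellar array 1 and highest on cerebellar array 3. Leaving array 1 out therefore had to raise their cerebellar level, so the added calls are no support.

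**Figure D5:**
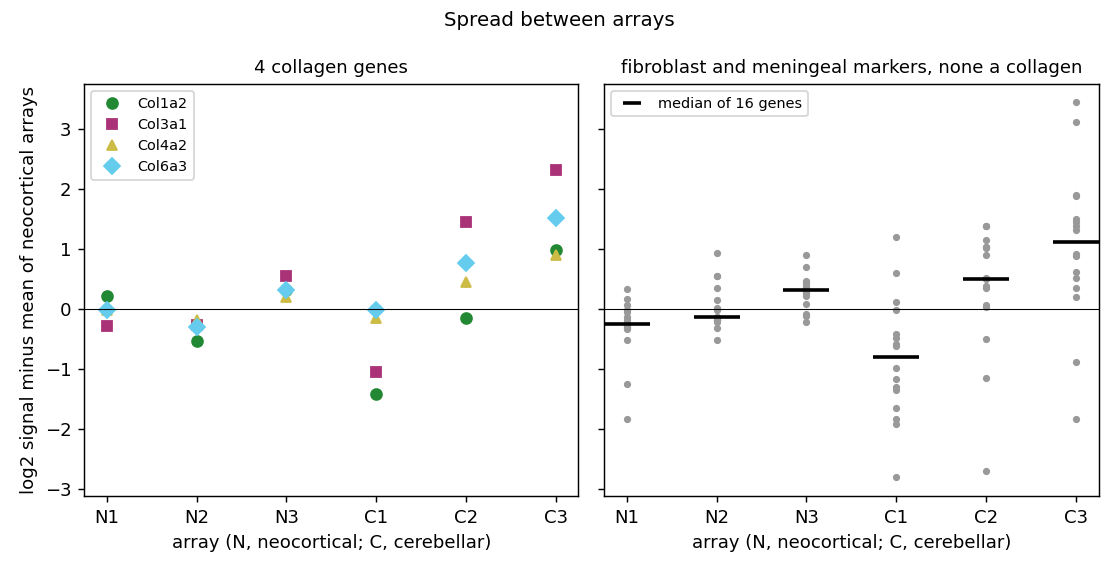
Log2 signal minus the mean of the neocortical arrays for Col1a2, Col3a1, Col4a2 and Col6a3 (left) and for 16 tested fibroblast and meningeal markers, none a collagen (right, dots; bars are medians), on arrays N1 to N3 (neocortical) and C1 to C3 (cerebellar). The 4 collagen genes were picked from the 14 with C1 lowest and C3 highest, so their order is fixed by that choice; of the markers 12 follow it and Lum, Fap, Twist1 and Cemip do not, with medians of -0.799 on C1 and 1.115 on C3.

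Of 21 tested genes for collagen synthesis and folding in the secretory pathway, 3 were higher and 1 was lower in cerebellar astrocytes, against 5.4% higher and 7.47% lower over all genes tested, with a median log2 difference of 0.079. The higher ones were P4hb, a subunit of prolyl 4-hydroxylase (1.45-fold), Colgalt1, which adds galactose to hydroxylysine (1.35-fold), and Creb3l1, a transcription factor known to activate collagen genes (1.63-fold). Other prolyl 4-hydroxylase subunit genes did not pass by their brightest probe sets. P4ha1 and P4ha3 had log2 differences of -0.488 and -0.424 (limma adjusted p = 0.0595 and 0.0613), and P4ha2 of 0.372 (adjusted p = 0.501). For P4ha1, 1 of 2 tested probe sets passed. P3h2, a prolyl 3-hydroxylase that acts on type IV collagen, was 1.88-fold lower (adjusted p = 0.0344). The collagen chaperone gene Serpinh1 did not pass, at a log2 difference of 0.079 ± 0.0999 (SE).

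Of 8 tested genes for procollagen processing and crosslinking, 2 were higher and 1 was lower, against the same background of 12.9% in either direction. Of these, Tll1 and Adamts3 passed the filter only through the group where they were high, so the count is no support. Pcolce, which enhances removal of the procollagen C-terminal end, read 24600, 19350 and 39280 on cerebellar arrays and had a neocortical mean of 11520. It was 2.33-fold higher (limma adjusted p = 0.0126) on the brighter of 2 probe sets that both passed. The procollagen proteinase gene Tll1 had a neocortical mean of 117.4 and a cerebellar mean of 592 (limma adjusted p = 0.0406). The procollagen N-proteinase gene Adamts3 had a neocortical mean of 426.5 and cerebellar arrays at 143.9 to 207.2 (adjusted p = 0.0312). The lower level of each lay in the dim range, so the size of the difference is uncertain. The crosslinking enzyme gene Lox read 4858, 6804 and 26090 on cerebellar arrays and did not pass (adjusted p = 0.402). Of 6 tested collagen receptor genes 1 passed: the endocytic collagen receptor gene Mrc2 was 2.59-fold higher (adjusted p = 0.0274). The brightest members, Ddr1 and Itgb1, had log2 differences of -0.22 ± 0.101 and 0.097 ± 0.137 (SE).

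Of the astrocyte markers, 11 of 12 lay above the dim range on every array. The exception was Gjb6, a gap junction gene, which read 11.97, 781.6 and 416.4 on neocortical and 119.9, 203 and 774.7 on cerebellar arrays. All 12 were tested, of which Aqp4 was higher and Slc1a3, Aldoc, Glul and Fgfr3 were lower in cerebellar astrocytes. Over all genes tested 5.4% were higher and 7.47% lower. Slc1a3 passed on 1 of its 6 tested probe sets and Fgfr3 on 1 of 2. Gfap was 2.16-fold lower on its brightest probe set without passing (limma adjusted p = 0.0647), while 1 of its 3 tested probe sets passed. The summed signal of the 12 markers ran from 225800 to 273000 on neocortical and from 163600 to 233700 on cerebellar arrays. The endothelial genes Pecam1 and Tie1 were under the floor in the mean of both regions, while Kdr and Slco1a4 were lower in cerebellar astrocytes, and the summed signal of 12 endothelial markers ran from 15380 to 18260 and from 5951 to 8086. Slco1a4 dominated the neocortical sum, at 13330, 12330 and 14540 on neocortical and 3811, 5514 and 2984 on cerebellar arrays. Of the 12, 7 had means in the dim range in both regions. The summed signal of 12 mural cell markers ran from 178000 to 209100 and from 133400 to 169800, with Vtn higher and Acta2 lower, and Myh11, Abcc9 and Kcnj8 were too dim to test. Sums for 8 choroid plexus markers ran from 9563 to 10330 and from 2901 to 4562, with Folr1, Kcnj13 and Otx2 lower, and those for 10 microglia markers from 10910 to 30970 and from 6312 to 35470. The brightest of the latter, Csf1r and C1qa, had log2 differences of 0.002 ± 0.584 and -0.006 ± 0.62 (SE). Of 10 neuron markers 6 were tested, and Syt1 and Gad1 were lower (sums of 10550 to 15040 and 8314 to 20660). Of 9 oligodendrocyte markers 4 were tested, and Mbp was higher, passing on 3 of 5 tested probe sets. Its neocortical mean of 185.4 lay in the dim range. Cnp and Cldn11 were the brightest oligodendrocyte markers (sums of 41850 to 50210 and 44920 to 68580). Of 6 Schwann cell markers 5 were tested, with Egr2 higher and Pmp22 and Cdh19 lower (sums of 35450 to 40050 and 31450 to 36880). Gapdh control probe sets at the 3′ and the 5′ end had signal ratios, which rise as RNA degrades, of 0.872, 0.865 and 0.883 on neocortical and 0.913, 1 and 1.07 on cerebellar arrays. Gad1, Otx2 and Cdh19 passed the filter only through their neocortical arrays. The part of other cell types and of RNA integrity in the collagen differences was not tested.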

How the data were processed

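The authors deposited 1 linear intensity value per probe set and array. Neither the summarisation software nor any detection call is given in the sources used here. Every array had a trimmed mean (2%) of 1500, and the medians ran from 284.7 to 361.2. Quantile normalization was applied to the 45037 probe sets that are not controls, a floor was set at the 20th percentile (62.16), before log2. Testing covered the 27022 probe sets whose mean reached the 40th percentile, cerebellar against neocortical, 3 arrays each, in R 4.3.3 by limma 3.58.1 (trended eBayes after lmFit, two-sided, without a block) and Benjamini-Hochberg adjustment over all of them, at a threshold of 0.05. The number of arrays limits the precision. Levels of different probe sets are not on one scale, and brightness served only to choose a probe set or which genes to name, while a list's summed signal is dominated by its brightest members. Folds come from floored log2 values, which understates the change of a gene that has arrays under the floor.

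Probe sets were named from the platform annotation, updated by Entrez ID for 34741 of the 34945 with 1 symbol; 932 had several and 9160 none. No coordinates of probe sets are given, because their build is not stated. The members and lists were chosen with earlier results of these data known. By the naming rule every member is accounted for, and those past the threshold, those with a fold of 2 or more between group means and their partner chains are given array by array; others given array by array were chosen after their values were seen. From each other list up to 4 genes past the threshold with the largest differences were named, or the 2 brightest where under 2 passed. P4ha1, P4ha2, P4ha3, Serpinh1, Lox, Dcn, Aldh1a2, Gfap, the remaining astrocyte genes and the dim markers were chosen after their values were seen.

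Across probe sets, deviations from the group mean correlated at 0.182, 0.186 and 0.101 between arrays with the same number and at -0.184 to 0.0261 for other pairings. Same-numbered arrays thus correlated more than the other pairings, but weakly. The labels do not say what the numbers share, so whether the arrays are pairs is not known. Deviations within a group cancel out, so positive values for some pairings push others down. The contrast is therefore no independent evidence of pairing. The main calls and SEs come from the fit without the block, and the blocked value stands beside the 3 genes whose call it changed. Alternatives covered the scaling, filter, floor, variance trend, replicate block, choice of probe set and each array left out.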

Additional observations from a re-analysis of the deposited data

How the results depend on the processing

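Of the collagen calls, those of Col4a3, Col4a4, Col11a1 and Col12a1 held under every alternative that could test them, and no called difference changed sign. For Col4a3 and Col4a4, which passed the filter through their neocortical arrays alone, the alternatives that kept a filter add no support. The number of collagen genes called was 7 of 29 tested, and 5 to 10 when each array was left out. It was 4 of 36 with no filter. For collagen probe sets the number was 16 of 53, against 10.7% of all probe sets tested. It was 9 of 69 with no filter, 10 of 37 with the dimmest 60% left out and 10 to 20 when each array was left out. The 10.7% belongs to the main setting alone, and no share over all probe sets is given for these other settings. Over all genes the number called was 1627 of 12637, then 748 of 18193 with no filter and 1556 of 9965 with the dimmest 60% left out. It was 848 without the variance trend and 725 to 1516 when each array was left out. The lowest of these were the counts without a neocortical array (766, 830 and 725). With no filter more probe sets enter the adjustment, and with an array left out fewer samples remain; other causes were not tested. The replicate block gave 10 collagen genes called, adding Col1a1 and Col5a1 as higher and Col5a2 as lower, and changed no other collagen call. Scaling by the median shifted the median log2 difference of all probe sets from 0.009 to -0.096. The dim range limits the size of the Col4a3 and Col4a4 folds.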
